A study of Mus musculus with 6 samples.

Results

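Cytosolic ribosomal protein genes were read out in the ventral lumbar spinal cord of wild-type mice and of mice lacking Gdpd5. The members are the protein_coding genes of GENCODE vM21 whose symbol is Rpl or Rps followed by a digit, together with Rpsa, Rplp0, Rplp1 and Rplp2. Rps6k kinases and symbols with -ps were left out. This rule takes 86 of 21951 protein_coding genes. They fall into 43 genes of the large subunit, 31 of the small subunit, 3 of the stalk and 9 with the symbols of paralogues. The last group holds Rpl3l, Rpl7l1, Rpl10l, Rpl22l1, Rpl36al, Rpl39l, Rps27l and Rps27rt. It also holds Rps19bp1, which encodes a protein that binds Rps19 and is not itself a ribosomal protein.

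The ribosome translates mRNA into protein. Its small subunit decodes the mRNA, its large subunit joins the amino acids, and a flexible stalk on the large subunit recruits the elongation factors. Ribosomal protein mRNAs are abundant in every tissue, and many begin with a C followed by a run of pyrimidines, the 5′ terminal oligopyrimidine (TOP) start, through which the TOR kinase pathway and the protein LARP1 control their translation. In the spinal cord these mRNAs are found in neuronal cell bodies, axons and dendrites and in glia.

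The samples were 3 wild-type (WT) and 3 Gde2KO libraries, all from C57BL/6 mice aged 5 weeks. Gdpd5 encodes GDE2, a surface enzyme that cleaves glycosylphosphatidylinositol anchors, and the study asks how it bears on Wnt signalling in neurons and on the maturation of oligodendrocytes. RNA was poly-A selected from the ventral side of the lumbar cord, a mixture of neurons, glia and vessels in which fewer cells of a type and less RNA per cell cannot be told apart. The labels give neither how the Gde2KO allele was made nor the sex or parentage of the animals, and they do not say that the replicates are separate animals, so p-values measure only the spread between these libraries.

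Gdpd5 stood at 5.41, 6.58 and 5.99 FPKM in the WT libraries and at 1.25, 1.20 and 0.952 FPKM in the Gde2KO libraries, matching the genotype in the labels, with a fold of 0.202 (95% interval 0.162 to 0.253, limma, adjusted p = 0.0053). FPKM are fragments scaled to the assembled length of a transcript and to library size. Relative depth of the libraries ran from 0.910 to 1.14, and each held 31899 to 33791 assembled transcripts. Gde2KO replicate 3 stood apart in its assembly, with an annotated intron chain in 56.2% of its multi-exon transcripts against 49.3% to 49.8% in the other libraries. Gde2KO replicate 1 stood apart in sex-linked and fibroblast genes, with the Y-linked gene Ddx3y at 21.8 FPKM (listed at 0 in the other 5), Xist listed at 0, and Col1a1, a fibroblast collagen, at 4.88 FPKM against 12.9 to 18.1. All 7 motor neuron markers were present (summed 153 to 188 FPKM in WT and 185 to 207 in Gde2KO), and so were all 7 markers of the superficial dorsal horn (192 to 203 and 205 to 233). Summed oligodendrocyte markers ran from 2867 to 4497 FPKM in WT and from 4287 to 6529 in Gde2KO. The part of these shifts in the values below was not tested.

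Sequence at the annotated start is shown first, because a shared start is what many of these genes are known for. RefSeq (GRCm38.p6) starts were matched by symbol for 66 of the 86 members. A TOP start, here a C at the start base followed by at least 4 pyrimidines, was found at a start of 14 of the 66 (21.2%), against 3.01% of 27025 genes in the same table. This count depends on the exact annotated base. When such a run could begin anywhere within 15 bases of the start, it was found in 47 of the 66 (71.2%), against 44.9% of all genes. The 14 are Rpl14, Rpl15, Rpl28, Rpl35, Rpl35a, Rpl38, Rplp2, Rps6, Rps10, Rps15a, Rps18, Rps21, Rps27 and Rps27rt. Their pyrimidine runs were 5 to 13 bases long, with a median of 8. The windows below hold 15 bases before the start and 15 from it on, the capitals mark the pyrimidine run that begins at the start base, and the 7 genes shown are among those described further on.
Rpl14, chr9:120571502-120571531, plus strand: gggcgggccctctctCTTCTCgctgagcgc
Rpl15, chr14:18270972-18271001, minus strand: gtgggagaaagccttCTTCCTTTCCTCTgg
Rpl35a, chr16:33056467-33056496, plus strand: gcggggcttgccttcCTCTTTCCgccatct
Rpl38, chr11:114668565-114668594, plus strand: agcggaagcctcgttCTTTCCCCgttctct
Rplp2, chr7:141447636-141447665, plus strand: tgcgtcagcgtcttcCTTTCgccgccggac
Rps27, chr3:90213634-90213663, minus strand: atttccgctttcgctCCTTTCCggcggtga
Rps27rt, chr9:114982725-114982754, minus strand: agaacttatcccttgCTTTCCggcggtgac

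Rps27 and Rps27rt lie on different chromosomes and have the same coding sequence over all 252 bases. In Rpl15 the run goes on for 13 bases, the longest of the set. In the 300 bases from 250 before to 50 after the start, the letters CCGGAAG, as bound by ETS factors, were found on either strand in 39.4% of the members against 9.93% of all genes in the table. CCATNTT, as bound by YY1, was found in 31.8% against 18.2%, the SP1 box GGGCGG in 62.1% against 38.2%, and the TATA box TATAAA in 10.6% against 15.7%. These are matches of letters and no measure of binding.

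A level was made per base, by adding up the FPKM of all transcripts over each exonic base of the gene alone and averaging over the bases assembled in at least 3 libraries. Of the 86 members 80 passed the filters, a mean of at least 1 FPKM over at least 200 such bases. Members that did not pass were Rpl24 with 90 counted bases, Rpl36al with 128 and Rps10 with 131, then Rpl3l at a mean of 0.307 FPKM, and Rpl10l and Rpl39l, both listed at 0 in all 6 libraries. Rpl3l is the paralogue of striated muscle, and Rpl10l and Rpl39l are those of the testis. Over its 90 bases Rpl24 stood at 227, 59.6 and 155 FPKM in WT and 214, 230 and 227 in Gde2KO. Rps10 ran from 121 to 204 FPKM and Rpl36al from 82.5 to 123 FPKM.

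**Figure D1:**
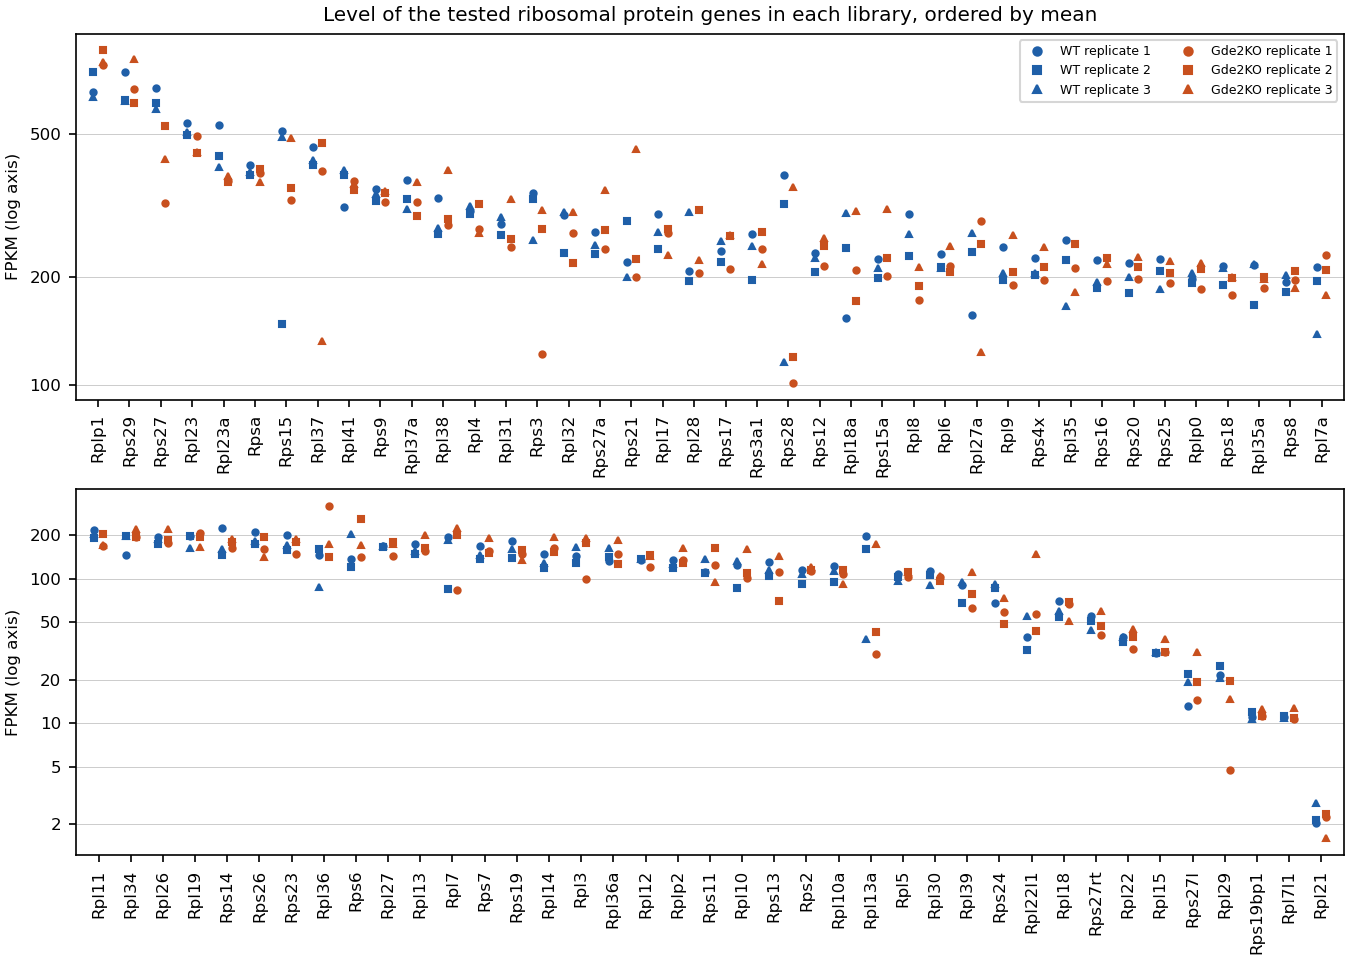
FPKM per library (log axis) of 79 of the 80 tested ribosomal protein genes, ordered by mean level, with WT in blue, Gde2KO in orange and the replicate number as the symbol. The genes run from Rplp1 at a mean of 743 FPKM to Rpl21 at 2.21 FPKM, and 1 or 2 libraries of Rps15, Rpl37, Rps3, Rpl7 and Rpl29 lie far below the others of the same gene.

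The highest mean levels belonged to Rplp1 (743 FPKM), Rps29 (679), Rps27 (524), Rpl23 (487), Rpl23a (415) and Rpsa (390). Rps29 stood at 746, 623 and 616 FPKM in the WT libraries and 668, 611 and 809 in Gde2KO, so that its groups overlapped and its range touched those of Rplp1 and Rps27. Rpsa, which is also known as the laminin receptor, stood at 411, 385 and 390 FPKM in WT and 388, 399 and 367 in Gde2KO, the narrowest range of these 6. Rps15 came next at a mean of 386 FPKM but ran from 148 to 511. Over the 6 libraries the ranges of neighbours in this order overlapped throughout.

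The lowest tested levels were those of Rpl21 (2.21 FPKM), Rpl7l1 (11.2), Rps19bp1 (11.5), Rpl29 (17.7), Rps27l (19.9) and Rpl15 (32.3). This order is per length and is no order of transcript number. The assembled model of Rpl15 was 3319 to 3491 bases long, of which the last exon took 2910 to 3071. Rpl21 encodes a protein of the large subunit, and its locus stood at 2.04, 2.15 and 2.83 FPKM in WT and 2.26, 2.37 and 1.60 in Gde2KO. Its 480 coding bases have 74 annotated copies of at least 90% identity, the most of any member. One of them, Gm37070 on chromosome 1 (93.8% identity), was listed at 0, 30.9 and 22.6 FPKM in the WT libraries and 29.8, 25.6 and 0 in Gde2KO, above Rpl21 itself in the 4 libraries where it was assembled. Rpl7l1 and Rps19bp1 were the steadiest of the low genes, with the highest library 1.19 and 1.18 times the lowest.

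Copies of this kind were counted for every member by aligning its coding sequence to 13523 annotated pseudogenes. At 90% identity over 90% of the coding length there were 938 copies of 78 members, a median of 7.5 each. For some members, among them Rpl10, Rpl17 and Rpl19, the summed copies stood at 0 FPKM in every library. The sources used here do not say how reads with several possible origins were shared out, so levels of a gene and its copies are uncertain against each other. Rpl37rt (99.7% identical to Rpl37) reached a mean of 79.6 FPKM against 382 for Rpl37, Gm6472 62.3 against 158 for Rps7, Gm4332 60.5 against 206 for Rps20, and Rpl39-ps 55.1 against 84.5 for Rpl39. Rpl21 was the one member whose summed copies, at 18.5 FPKM, exceeded the gene. Each pseudogene was counted for the 1 member it was most like. Members with no copy counted at this identity included Rpl8, Rps3, Rplp2, Rps19bp1, Rpl3l, Rpl39l and Rps27rt. Rps27rt has the same coding bases as Rps27, and the 9 copies counted for Rps27 are as much its own. Across the 80 tested genes, which share the libraries, the number of copies and the mean level had a Spearman correlation of -0.03.

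Between the genotypes, none of the 80 tested ribosomal protein genes passed the test (limma, Benjamini-Hochberg adjustment, threshold 0.05). Of all 12894 genes tested 0.116% passed, 0.0388% with higher and 0.0776% with lower levels in Gde2KO. Every tested member had an adjusted p of 0.882 or above. At an unadjusted p under 0.05 there were 4 members (Rpl8, Rps27, Rpl14 and Rplp1), or 5.00%, against 3.91% of all genes. The median log2 difference, Gde2KO minus WT on log2(FPKM + 0.1), was 0.01 over the members (quartiles -0.06 and 0.10) and 0.00 over all genes. Differences were above 0 for 46 members and below 0 for 34, a split that turned over to 36 above 0 without scaling between libraries. It also turned over to 36 above 0 without WT replicate 2 and to 31 without Gde2KO replicate 3.

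**Figure D2:**
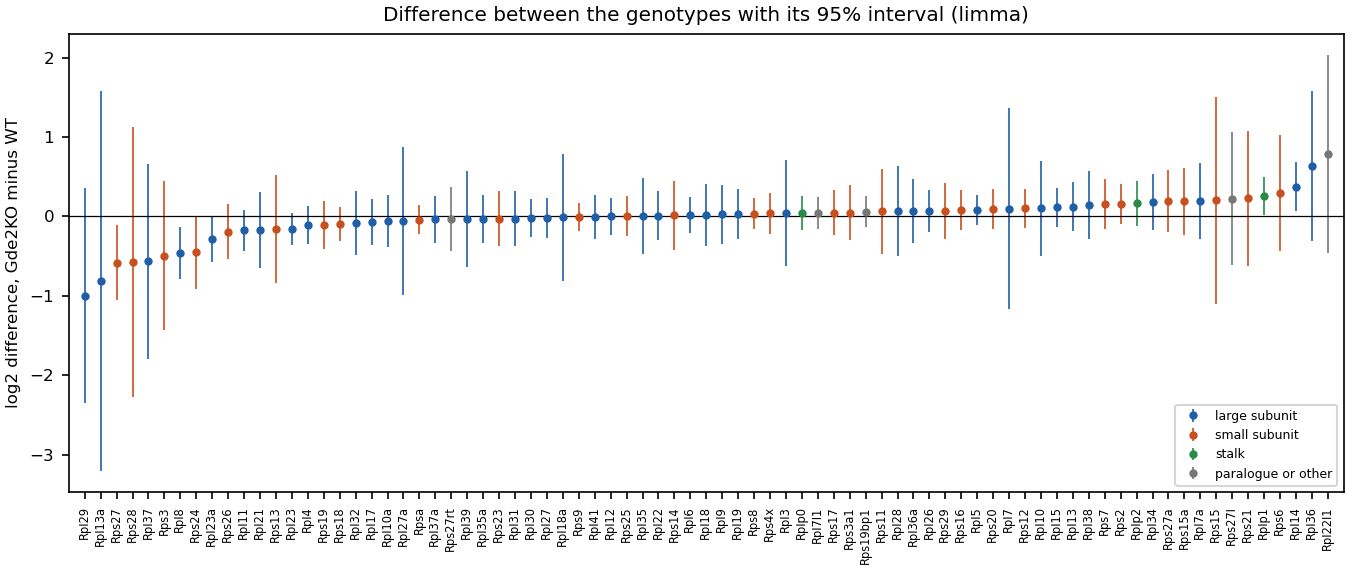
Log2 difference between the genotypes, Gde2KO minus WT on log2(FPKM + 0.1), with its 95% interval from limma for 79 of the 80 tested genes in order, coloured by group. The points run from -0.999 (Rpl29) to 0.79 (Rpl22l1), and the widest intervals are those of Rpl13a and Rps28.

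The intervals show what these libraries could resolve. The median 95% interval of a member reached 0.34 to each side on the log2 scale, against 0.28 over all genes. It lay inside a 2-fold difference in either direction for 67 of the 80 members, and for 11328 of all 12894 genes. The groups did not overlap for 8 of the 80 members, against 10.9% of all genes. These were Rpl14, Rplp1 and Rpl15 with the higher values in Gde2KO (5.06% of all genes), and Rpl8, Rps27, Rpl23a, Rpl23 and Rpl29 with the lower ones (5.79% of all genes).

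In the large subunit 21 of 42 tested genes had a difference above 0 and 21 below, with a median of 0.00 on the log2 scale. Rpl8, which lies near the site of peptide bond formation, stood at 299, 228 and 264 FPKM in the WT libraries and 172, 188 and 213 in Gde2KO. Each Gde2KO value was below each WT value, with a log2 difference of -0.46 and a fold of 0.727 (0.579 to 0.915, limma, adjusted p = 0.882). The leading assembled transcript of Rpl8 had a first exon of 59 to 174 bases in WT and of 321 to 397 bases in Gde2KO. Fragments per gene were worked back as the sum of FPKM times assembled length, so they are no read counts. On that scale the log2 difference of Rpl8 was -0.13.

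Rpl14 had the opposite sign. Its level was 147, 119 and 128 FPKM in WT and 164, 154 and 193 in Gde2KO, without overlap, with a log2 difference of 0.37 and a fold of 1.29 (1.05 to 1.60, limma, adjusted p = 0.882). By fragments per gene the difference was 0.10. The lone copy, Rpl14-ps1 on chromosome 7 (98.9% identity), stood at 34.3 to 43.6 FPKM in WT and 38.1 to 63.9 in Gde2KO. Rpl15 (30.9, 30.8 and 31.04 FPKM in WT, then 31.2, 31.05 and 38.6 in Gde2KO) did not overlap either, but apart from Gde2KO replicate 3 its values all lay between 30.8 and 31.2 FPKM.

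Rpl23a, a protein at the exit of the peptide tunnel where nascent chains meet their targeting factors, stood at 530, 434 and 405 FPKM in WT and 369, 367 and 382 in Gde2KO. The groups did not overlap, with a log2 difference of -0.28 (fold 0.822, 0.673 to 1.005). Rpl23 stood at 536, 498 and 507 FPKM in WT and 494, 444 and 446 in Gde2KO, again without overlap, at a log2 difference of -0.16 (fold 0.897, 0.779 to 1.03). By fragments per gene these differences were -0.14 and -0.07.

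Rpl29 had the lowest difference of all members. It encodes a protein that mice can do without, at the cost of smaller growth. Its level was 21.6, 24.9 and 20.6 FPKM in WT and 4.73, 19.7 and 14.6 in Gde2KO, so that the groups did not overlap and Gde2KO replicate 1 lay far below the rest. The log2 difference was -0.999 (fold 0.500, 0.196 to 1.28), and -0.39 without Gde2KO replicate 1. Rpl29 has 53 annotated copies of at least 90% identity, after Rpl21 and Rpl7a the third most.

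Rpl36 showed 1 library apart in the other direction, with 146, 162 and 88.2 FPKM in WT and 319, 142 and 172 in Gde2KO. Its groups overlapped, and the log2 difference of 0.64 (fold 1.55, 0.806 to 2.995) became 0.29 without Gde2KO replicate 1. The assembled transcript of Rpl36 in that library was 340 bases long, against 465 to 653 in the others.

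In the small subunit 18 of 30 tested genes had a difference above 0 and 12 below, with a median of 0.04. Rps27, a zinc-binding protein, stood at 674, 612 and 587 FPKM in the WT libraries and 321, 527 and 426 in Gde2KO. All Gde2KO values were below all WT values, with a log2 difference of -0.58 and a fold of 0.668 (0.481 to 0.927, limma, adjusted p = 0.882). Its leading transcript was 297, 297 and 304 bases long in WT and 407, 325 and 309 in Gde2KO. As fragments per gene, scaled to library size, the values of Rps27 were 202, 183 and 179 in WT and 131, 171 and 132 in Gde2KO. These did not overlap either and differed by -0.40 on the log2 scale. Without Gde2KO replicates 1 and 3 the difference per base was -0.24.

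Rps27rt, whose coding sequence is that of Rps27, stood at 54.9, 51.1 and 44.3 FPKM in WT and 41.02, 47.1 and 59.9 in Gde2KO, with overlap and a log2 difference of -0.03. The more distant Rps27l (76.2% identical to Rps27 over the aligned coding bases), a gene induced by p53, stood at 13.1, 21.8 and 19.2 FPKM in WT and 14.5, 19.3 and 31.4 in Gde2KO. Its groups overlapped as well, at a log2 difference of 0.22.

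Rps24, a gene mutated in Diamond-Blackfan anaemia and spliced in several forms at its last exons, stood at 68.3, 86.9 and 91.7 FPKM in WT and 59.3, 48.8 and 73.3 in Gde2KO. WT replicate 1 lay below Gde2KO replicate 3, so the groups overlapped. The log2 difference was -0.45 (fold 0.731, 0.531 to 1.005). These levels are averages over 3059 counted bases, and over its 366 coding bases the mean level of Rps24 was 487 FPKM, 6.82 times as high. Rpl26 (343 FPKM over coding bases against 189 over all) and Rpl11 (298 against 192) showed the same kind of gap.

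Rps2, which lines the entry channel of the mRNA, stood at 115, 91.3 and 107 FPKM in WT and 114, 115 and 120 in Gde2KO. The groups overlapped at a log2 difference of 0.16 (fold 1.12, 0.939 to 1.33). Rps3 was chosen after its values were seen, because it lies 16.0 kb from Gdpd5 on chromosome 7 (99477896 to 99483738). It stood at 342, 329 and 253 FPKM in WT and 122, 272 and 308 in Gde2KO, with overlap, and at a log2 difference of -0.49 (fold 0.710, 0.370 to 1.36), or -0.08 without Gde2KO replicate 1. In that library the assembled transcript of Rps3 was 1816 bases long, against 788 to 975 in the others. As fragments per gene, Rps3 ran from 250 to 274 in WT and from 221 to 249 in Gde2KO.

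The stalk genes all had differences above 0, with a median of 0.17. Rplp1 and Rplp2 encode the acidic proteins that form the arms of the stalk, and Rplp0 the base that holds them. Rplp1 stood at 655, 742 and 633 FPKM in WT and 778, 856 and 792 in Gde2KO. Every Gde2KO library was above every WT library, with a log2 difference of 0.26 and a fold of 1.196 (1.01 to 1.41, limma, adjusted p = 0.882). By fragments per gene, Rplp1 had a log2 difference of 0.03, with scaled values of 332 to 396 in WT and 348 to 397 in Gde2KO.

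Rplp2 stood at 134, 118 and 127 FPKM in WT and 134, 129 and 164 in Gde2KO, and overlapped at a log2 difference of 0.17 (fold 1.12, 0.920 to 1.37), or 0.06 without Gde2KO replicate 3. Rplp0 stood at 197, 192 and 204 FPKM in WT and 184, 209 and 219 in Gde2KO, at a log2 difference of 0.04. Its fold of 1.03 had a 95% interval from 0.884 to 1.198. The levels were unequal within the stalk, since Rplp1 stood 5.53 times as high as Rplp2 and 3.69 times as high as Rplp0 per base.

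Among the paralogues, Rpl22l1 had the highest difference of all members. It can stand in for Rpl22, an RNA-binding protein of the large subunit. Rpl22l1 stood at 39.5, 32.4 and 55.2 FPKM in WT and 56.7, 43.3 and 148 in Gde2KO, with overlap, and its log2 difference of 0.79 (fold 1.73, 0.725 to 4.10) was 0.26 without Gde2KO replicate 3. Rpl22 itself stood at 36.6 to 39.7 FPKM in WT and 32.7 to 44.8 in Gde2KO, at a log2 difference of 0.01. The mean levels of this pair were 62.5 FPKM for Rpl22l1 and 38.8 for Rpl22, and the coding identity was 68.2%. The mean of Rpl22l1 leans on the 148 FPKM of Gde2KO replicate 3. Rpl22l1 lay below Rpl22 in WT replicates 1 and 2 (39.5 against 39.7 and 32.4 against 36.6 FPKM) and above it in the other libraries. The leading models were 299 to 471 bases long for Rpl22l1 and 1923 to 2158 for Rpl22.

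In the other pairs the paralogue had the lower mean. Rpl7 (mean 162 FPKM) stood far above Rpl7l1 (11.2), a factor of ribosome assembly with 54.03% coding identity. Rpl36a, on chromosome X, had a mean of 149 FPKM and its relative Rpl36al 96.05 over 128 bases. Rpl3 stood at 151 FPKM against 0.307 for Rpl3l, Rpl10 at 119 and Rpl39 at 84.5 against 0 for Rpl10l and Rpl39l. Of the Rpl3 pair, Rpl3 ran from 128 to 166 FPKM in WT and from 99.6 to 190 in Gde2KO. Rps4x had no paralogue among the members.

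Members on chromosome X were Rpl10, Rpl36a, Rpl39 and Rps4x. In Gde2KO replicate 1, the library with Ddx3y, they stood at 101, 149, 62.8 and 196 FPKM, against ranges in the other 5 libraries of 86.6 to 160, 126 to 185, 68.2 to 111 and 202 to 243. Rpl39 and Rps4x were thus lowest in that library, and Rpl10 and Rpl36a lay inside the range of the others. Chromosome 7 held the most members, 14 of 86 (16.3%), against 9.22% of protein_coding genes.

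Library by library, the median of the members lay on either side of the WT mean in both genotypes. Its log2 distance from that mean was 0.10 in WT replicate 1, -0.08 in replicate 2 and 0.00 in replicate 3. For the Gde2KO libraries it was -0.06, 0.03 and 0.15, and the pooled SD within groups was 0.10. Over all genes the same medians lay between 0.00 and 0.01, because the scaling between libraries sets them near 0. Gde2KO replicate 3 was the highest of the 6 libraries for 36 of the 80 members and WT replicate 1 for 23, while Gde2KO replicate 1 was lowest for 23 and WT replicate 2 for 22. Over 12367 genes Gde2KO replicate 3 was likewise highest most often (3371), and it was also the library most often lowest (3201), whereas among the members it was lowest for 11. The summed level of the members was 17629, 15702 and 16340 FPKM in WT and 15235, 16404 and 17656 in Gde2KO, and the groups overlapped. By fragments per gene the medians kept this order in WT replicate 1 (0.10) and Gde2KO replicate 3 (0.13) at the top. On that scale the median of all genes in Gde2KO replicate 3 was 0.03.

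**Figure D3:**
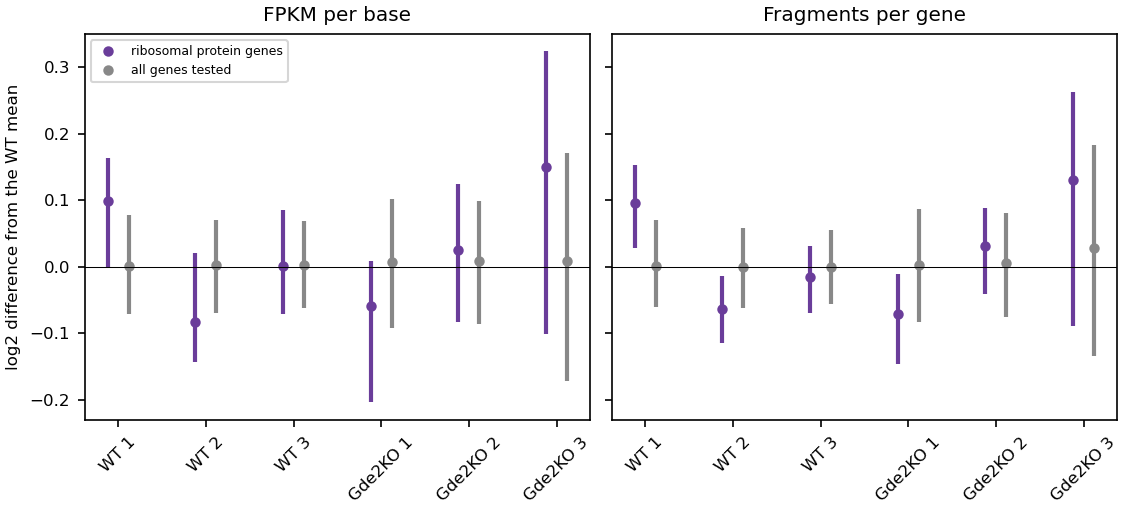
Median (point) and quartiles (bar) of the log2 difference from the WT mean in each library, for the 80 ribosomal protein genes and for all genes tested, by FPKM per base and by fragments per gene. The ribosomal protein genes are highest in WT replicate 1 and Gde2KO replicate 3, 1 library of each genotype. All genes, here those above 0 in all 6 libraries, stay near 0, where the scaling between libraries sets them for FPKM per base. The same factors were used for fragments per gene, where the median of all genes was 0.03 in Gde2KO replicate 3.

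Spread within groups was read on both scales. For all genes, only tested genes with a level in every library entered, 12367 per base and 12217 by fragments per gene. Per base, the median within-group SD of log2 levels was 0.18 for members and 0.14 for all genes, and 15 of 80 members (18.8%) spanned more than 2-fold over the 6 libraries, against 9.57% of all genes. By fragments per gene the same SDs were 0.14 and 0.12, and 3 members (3.75%) spanned more than 2-fold, against 7.45% of all genes. Tested genes without a level in some library were left out of both percentages for all genes. Such genes range over more than 2-fold, so both percentages are lower than they would be over all tested genes. The excess of the members per base is thus overstated.

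The assembled transcripts of a gene differed in length between libraries. Members had a single assembled transcript in 65 to 71 of 83 or 84 cases per library, and the leading transcript had an annotated intron chain in 89.3% to 96.4%. Its end was often longer or shorter than annotated, and for 22 of the 80 members the longest model was at least 1.5 times the shortest. In 13 of those 22 the longest model was in the library with the lowest level. Over 480 points (80 genes in 6 libraries) the within-gene deviations of log2 length and log2 level had a Pearson correlation of -0.43 and a Spearman correlation of -0.46. Points share genes and libraries, and FPKM itself divides by assembled length, so this is a description of the files.

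**Figure D4:**
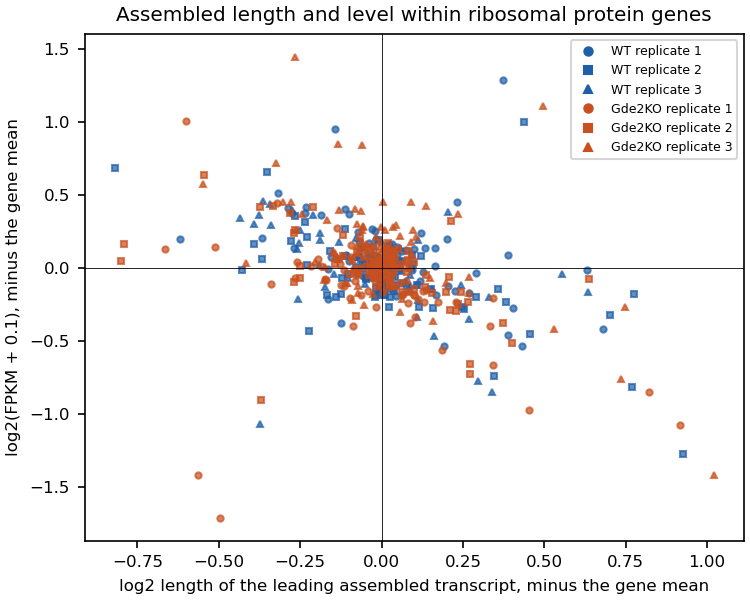
Each point is 1 of 80 ribosomal protein genes in 1 of 6 libraries. The x axis is the log2 length of its leading assembled transcript and the y axis log2(FPKM + 0.1), both minus the gene's mean over libraries, and points with longer models tend to lie lower (Pearson -0.43).

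Rpl7 shows the pattern most plainly. Its assembled transcript was 1108, 2284 and 1020 bases long in WT and 2365, 1034 and 915 in Gde2KO, and its level 195, 85.1 and 185 FPKM in WT and 83.4, 201 and 224 in Gde2KO. The lowest value of each genotype belonged to the library with the longest model, whose first exon was 1419 or 1426 bases long against 70 to 263 in the others. As fragments per gene, Rpl7 ran from 194 to 220 in WT and from 197 to 253 in Gde2KO.

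Rps15 had a model of 1195 bases in WT replicate 2, at 148 FPKM, against 488 to 645 bases and 328 to 511 FPKM elsewhere. Rpl37 had a model of 773 bases in Gde2KO replicate 3, at 132 FPKM, against 320 to 357 bases and 393 to 473 FPKM. Rps28 was low in WT replicate 3 and Gde2KO replicates 1 and 2 (116, 101 and 120 FPKM) and high in the other 3 libraries (384, 318 and 355). In the 3 low libraries the leading model of Rps28 began with an exon of 187 or 188 bases, against 52 to 63 in the others. Here the fragments per gene also differed, 41.4 to 44.1 against 117 to 140. In WT replicate 2 the leading model of Rps28 was 167 bases long. Levels and fragments need transcripts of at least 200 bases, so they leave that model out.

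Rpl13a was the most widely spread member, the highest library 6.55 times the lowest. It stood at 197, 161 and 38.3 FPKM in WT and 30.1, 43.03 and 174 in Gde2KO, low in the same 3 libraries as Rps28. Nearly all its 520 counted bases lie outside the coding sequence, of which 15 counted, and the leading model had a last exon of 438, 475 and 18 bases in WT and 18, 18 and 519 in Gde2KO. The level of Rpl13a per base is thus taken mostly over the last exon. As fragments per gene, Rpl13a ran from 194 to 265 in WT and from 181 to 257 in Gde2KO.

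Alternative splicing was seen in 3 members that had the same pair of intron chains in all 6 libraries. In Rpl22l1 the pair differs by 3 bases at the acceptor of the first intron. The coding start of both forms, up to and past that junction, is shown because the choice keeps or skips 1 codon, whose bases are in capitals.
Rpl22l1, exon from chr3:28806500, plus strand: aacatggcgccgCAGaaagacaagaag
Rpl22l1, exon from chr3:28806503, plus strand: aacatggcgccgaaagacaagaag

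The downstream acceptor of Rpl22l1 held 64.4%, 63.0% and 59.9% of the 2 forms in WT and 66.4%, 61.3% and 69.6% in Gde2KO, so that it led in every library and the groups overlapped. In Rpl35a, a gene mutated in Diamond-Blackfan anaemia, the pair differs in the first donor by 45 bases. The downstream donor held 49.5%, 56.9% and 13.4% in WT and 65.9%, 63.7% and 66.9% in Gde2KO. Each Gde2KO value was above each WT value, and WT replicate 3 lay far below the rest. With 3 libraries against 3 an exact permutation test cannot give a p under 0.10, and none was made.

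In Rpl38, which is known from mice with changed translation of Hox mRNAs, the first donors are 17 bases apart. The downstream donor of Rpl38 held 42.4%, 64.9% and 36.7% in WT and 59.7%, 50.2% and 61.1% in Gde2KO, with overlap. The 2 forms of Rpl35a together held 255, 189 and 243 FPKM in WT and 210.2, 221 and 225 in Gde2KO.

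**Figure D5:**
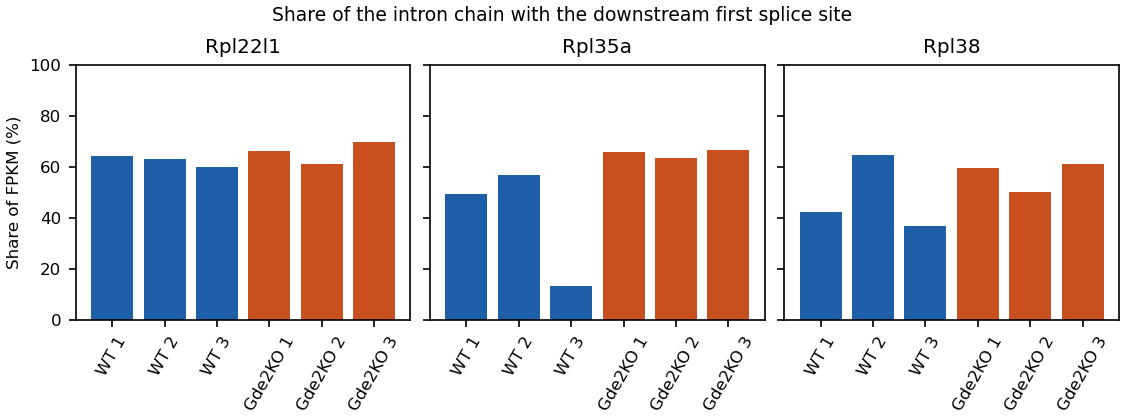
Share of FPKM (%) held by the form with the downstream first splice site, out of the pair of forms assembled in all 6 libraries, for Rpl22l1, Rpl35a and Rpl38, 1 bar per library (WT blue, Gde2KO orange). Rpl22l1 lies between 59.9% and 69.6% in every library, and Rpl35a shows 1 WT library at 13.4%.

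Genes that work with the ribosome were read in the same fit. Fau, a ribosomal protein with another symbol, stood at 207.7, 188 and 140 FPKM in WT and 149, 167 and 227 in Gde2KO, with overlap. Rack1, a scaffold on the small subunit, stood at 86.6, 95.8 and 98.6 FPKM in WT and 68.5, 81.01 and 78.4 in Gde2KO, without overlap, at a fold of 0.811 (0.689 to 0.953, limma, adjusted p = 0.882). Neither Fau nor Rack1 passed the test, and the same holds for each of 9 elongation factors, 24 other TOP genes, 37 initiation factors, 59 genes of ribosome biogenesis, 24 genes of the TOR pathway, 9 noncoding snoRNA host genes or 77 mitochondrial ribosomal proteins. Their median log2 differences were -0.04, 0.02, 0.05, 0.02, 0.00, -0.14 and -0.01 in that order. The lowest adjusted p among them was 0.627, for Mrpl48 (fold 0.800). Hnrnpa1, among the other TOP genes, had a fold of 1.39 and the initiation factor Eif3d one of 1.16, both with an adjusted p of 0.882 in limma. These lists share genes and are not independent. The other TOP genes include Fau, Rack1 and several elongation and initiation factors, such as Eef2 and Eif3e.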

How the data were processed

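TopHat2 2.1.1 (alignment to mm10), Cufflinks 2.2.1 (assembly) and Cuffdiff 2.2.1, with FastQC, are named per the submitters' processing notes; no FastQC version is stated there. A deposited file holds the assembly of 1 library, with an FPKM made by the authors for each assembled transcript. Depth is known only as the relative depth that these values imply.

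Assembled transcripts of at least 200 exonic bases were matched to GENCODE vM21 by exon overlap on the same strand, or on either strand where none was assembled. Levels were averaged over a gene's own bases assembled in at least 3 libraries and scaled by median-of-ratios factors (0.983 to 1.03). Fragments per gene are the sum, over its assembled transcripts, of FPKM times assembled length in kilobases. They depend on the assembly and are no read counts. A gene without a transcript was set to 0, which can be a failed assembly. Genes with a mean of at least 1 FPKM over at least 200 bases (12894) were tested with limma 3.58.1 (R 4.3.3) after taking log2(FPKM + 0.1), with intensity trend and robust moderation, two-sided, on all 6 libraries and without covariates. The pseudocount understates changes of low genes. Tested on simulated data with 12894 genes, the fit recovered 75 of 100 genes changed by 1 and 92 of 100 changed by 2 on the log2 scale, with 14 false calls. Those data had independent normal noise and no jumps in assembled length. The changed genes were drawn from all genes, so recovery among the members was not measured. Copies were found with BLAST 2.17.0, and sequences were credited to RefSeq or GENCODE tables.

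The members and lists were chosen with earlier results of these data known. Genes named are the 6 of smallest p in each direction, the 6 highest and 6 lowest, the stalk, paralogue pairs, untested members, the 3 most spread, Rps24, Fau, Rack1, Gdpd5 and genes of smallest p in other lists; others (Rps3, Rpl15, Rps15, Rps28, Rpl37, Rpl35a, Rpl38, Rpl26, Rpl11 and those on chromosome X) were chosen after their values were seen. A few genes are not reported here. Alternatives covered the level, counted bases, filters, pseudocount, scaling, moderation, a replicate block and left-out libraries.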

Additional observations from a re-analysis of the deposited data

How the results depend on the processing

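No ribosomal protein gene passed the threshold under any of the 26 alternatives run, where 76 to 83 members were tested. The lowest adjusted p of a member over them was 0.503, for Rps13 without Gde2KO replicates 1 and 3 (an alternative chosen after seeing the data, as was counting coding bases only). The median log2 difference of the members ran from -0.03 to 0.08, and 2 to 6 members had an unadjusted p under 0.05. The 12 named genes, the 6 of smallest p in each direction, kept their direction in all 312 values. They were picked by p from the main fit of the same libraries, which favours a kept direction. That count is thus a description and lends these genes no support. The count of all genes passing moved more. Against 15 it was 4 with bases assembled in all 6 libraries, 4 with a pseudocount of 0.01, 4 with values of 0 treated as missing, 1 with a mean of at least 5 FPKM, and 62 without Gde2KO replicates 1 and 3. Leaving out each replicate in turn gave 10 to 26. The cause was not tested. In the other translation lists 2 genes passed without Gde2KO replicates 1 and 3 and 0 otherwise. These were Mrpl44, listed at 0 in Gde2KO replicate 2, and Mrps2, at 1.44 FPKM there against 13.7 to 18.5 elsewhere. That fit assumes that the lone Gde2KO library varies like the WT ones.

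Replicate numbers of the labels showed no sign of paired libraries. Same-numbered WT and Gde2KO libraries had correlations of deviations of 0.01, 0.04 and -0.07, and the others -0.06 to 0.05. Deviations from means of 3 libraries are tied to each other, so these values cannot exclude a pairing. With the replicate block 2 genes passed, none of them a member. Depth is given only as relative values, so no counting interval could be made, and 3 libraries a group limit the precision.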
